A study of Homo sapiens with 24 samples.

Results

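The genes described here are 10 members of the unfolded protein response outside the arm run by ATF4: the endoplasmic reticulum (ER) chaperones and folding factors HSPA5, HSP90B1, HYOU1, DNAJB9, SDF2L1 and PDIA4, the degradation factors HERPUD1, EDEM1 and SEL1L, and the transcription factor XBP1. They were chosen by gene symbol and not by a cut on their values, though earlier results of these data were known. They are 10 of the 23368 rows of a table of read counts per gene. All 10 were among the 13947 genes that passed the filter on low counts. The cells were AGS, an established human gastric adenocarcinoma line labelled wild type, and RNA was sequenced from 24 libraries in 6 groups of 4 biological replicates after 24 h. The control group was labelled as having no treatment, and the labels name no solvent. One group received PI103, an inhibitor of phosphoinositide 3-kinases and mTOR, at 0.7 µM. Another received PD0325901, an inhibitor of the kinase MEK, at 0.035 µM. A further group received (5Z)-7-oxozeaenol, an inhibitor of the kinase TAK1 and called oxozeaenol below, at 0.5 µM. Both combinations paired agents at 50% of their full concentrations, which makes 0.35 µM PI103 with 0.25 µM oxozeaenol, and 0.35 µM PI103 with 0.0175 µM PD0325901. The batch label, 1 to 4, is the replicate number in every group. In the labels of PI103, PD0325901 and PI103 + PD0325901, the number in an agent's name in the treatment tag runs on with the replicate from replicate 2 onward, while the titles name the same agent in all 4, and the titles were followed. Gene positions below are on GRCh38.

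Proteins that enter the ER fold there with the help of chaperones. When unfolded protein builds up, the sensors ERN1 (IRE1), ATF6 and EIF2AK3 (PERK) are released from HSPA5. ERN1 splices XBP1 mRNA so that it encodes an active transcription factor, and ATF6 is cut in the Golgi to free another. Both factors raise genes for chaperones and for ER-associated degradation, in which misfolded protein is passed back to the cytosol and destroyed. EIF2AK3 acts instead through ATF4. Counts per gene do not show whether XBP1 mRNA was spliced or ATF6 cut, and nothing here measures protein.

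Gene counts per library ranged from 38.1 M to 84.2 M. Epithelial markers were present in all 24 libraries (EPCAM 619.5 to 988 and KRT8 2115 to 3587 CPM, counts per 1000000 gene counts). The lowest of the 6 epithelial markers was CDH1, at 11.6 to 22.7 CPM. Of the 4 gastric markers in the table GKN1 was at 0 throughout and TFF1 reached 17.5 CPM. Among markers of other cells, PTPRC, the pan-leukocyte marker, did not pass 0.101 CPM in any library and was at 0 in 12 of them, and COL1A2, DCN, CDH5 and CD3E were at 0 in 21 or 22 of 24. The 4 leukocyte markers summed to 38.7 to 49.3 CPM in control and 188 to 468 CPM in treated libraries, nearly all of it LYZ (37.7 to 466 CPM), which epithelial cells can also make. The 4 fibroblast markers, nearly all COL1A1, summed to 14.0 to 17.0 CPM in control, 8.06 to 10.8 CPM in both oxozeaenol groups and 17.7 to 34.2 CPM in the other treated groups. Their part in the results was not tested. Replicate 2 of PD0325901 and replicate 2 of PI103 + PD0325901 had the highest levels of HSPA5, HSP90B1, HYOU1, PDIA4, EDEM1 and SEL1L in their groups. Results that rest on these libraries are given with and without them.

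In the window before the RefSeq start of 6 of the 10 genes stand the letters of motifs known to be bound by ATF6 or XBP1, and 5 of these stretches are shown because such motifs were described in genes of this pathway. A match of letters is a description and does not show that a factor binds. The 250 bases before the RefSeq transcription start (GRCh38.p14; the start farthest upstream for PDIA4 and XBP1, which have 2 windows each) were searched on both strands. The ER stress response element (ERSE), CCAAT and CCACG with 9 free bases between them, was in 26 of the 35116 RefSeq windows of this length (0.074%) and in HSPA5, HSP90B1 and XBP1. HSP90B1 held it at 2 places, of which the nearer to the start lies on the reverse strand. Below, lower case is the surrounding sequence, 20 bases on each side, and capitals mark the fixed letters of the matches.
HSPA5 (chr9:125241371-125241429, minus strand): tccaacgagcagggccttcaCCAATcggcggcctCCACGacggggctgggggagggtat
XBP1 (chr22:28800583-28800641, minus strand): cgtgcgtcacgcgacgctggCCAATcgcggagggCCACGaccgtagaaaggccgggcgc
The HSPA5 match spans positions 66 to 48 before the start and the XBP1 match positions 52 to 34. Those of HSP90B1 span positions 194 to 176 and 89 to 71. GENCODE 29 starts HSP90B1 farther upstream than RefSeq, so both of its matches lie inside the gene span given below, and its stretch is not shown. The XBP1 stretch overlaps the GENCODE span of its gene in part.

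The related element ERSE-II, ATTGG and CCACG with 1 free base between them, was in 18 of the 35116 windows (0.0513%) and in HYOU1, at 2 places, SDF2L1 and HERPUD1. HYOU1 also held the XBP1-binding motif TGACGTGG (called UPRE, in 0.612% of windows), which overlaps its upstream ERSE-II. HERPUD1 also held TGATGCAA, the motif bound by ATF4 with C/EBP proteins (CARE, in 0.772% of windows), on the reverse strand. Capitals again mark the fixed letters.
HYOU1 (chr11:119057254-119057413, minus strand): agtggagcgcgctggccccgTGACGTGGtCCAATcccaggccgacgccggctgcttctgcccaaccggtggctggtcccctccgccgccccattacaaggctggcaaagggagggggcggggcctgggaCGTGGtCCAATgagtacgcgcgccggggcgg
SDF2L1 (chr22:21642094-21642144, plus strand): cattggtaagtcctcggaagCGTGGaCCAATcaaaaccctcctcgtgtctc
HERPUD1 (chr16:56931946-56932055, plus strand): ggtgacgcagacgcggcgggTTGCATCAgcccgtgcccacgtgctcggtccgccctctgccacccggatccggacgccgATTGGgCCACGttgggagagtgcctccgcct
DNAJB9, PDIA4, EDEM1 and SEL1L held none of these 4 motifs in the window. All 10 held the CCAAT box, CCAAT, which is part of both ERSE forms and is in 32% of all windows. The HERPUD1 stretch and the windows of PDIA4, SDF2L1, EDEM1 and SEL1L also overlap the GENCODE spans of their genes in part. The DNAJB9 window lies wholly inside its GENCODE span, so no base before that start was searched for DNAJB9.

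**Figure D1:**
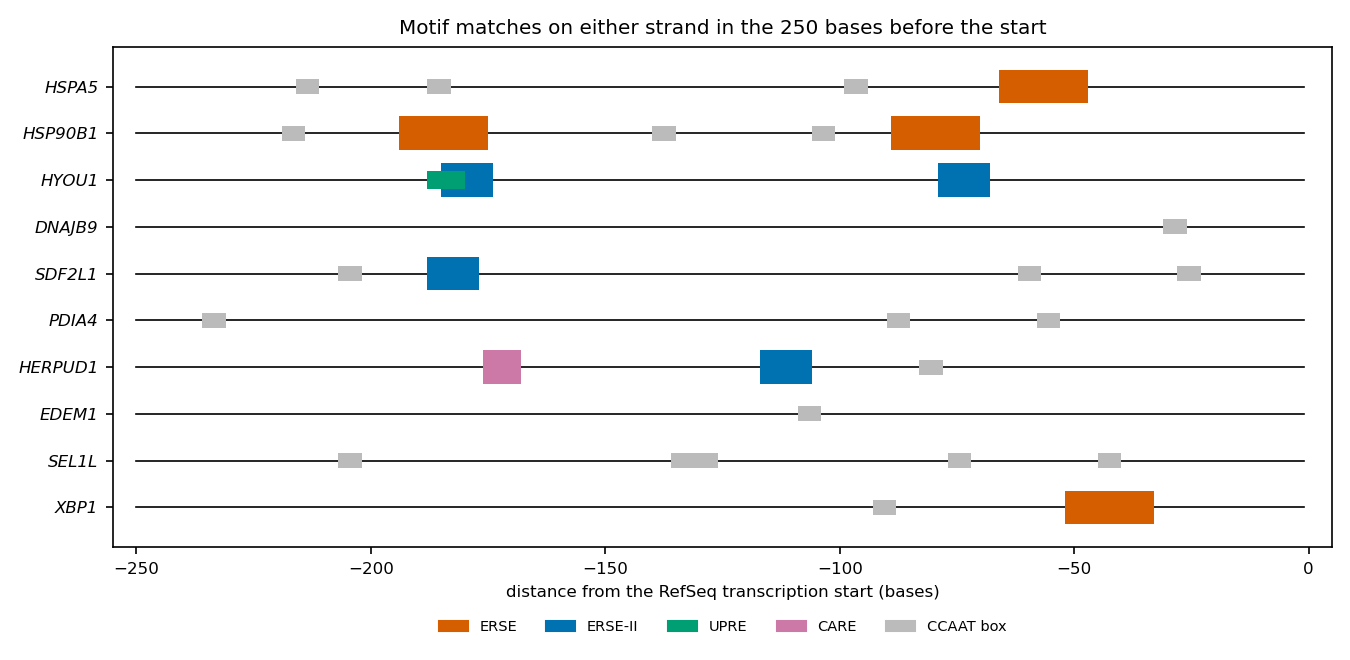
Motif matches in the 250 bases before the RefSeq transcription start of each gene, plotted by distance from the start in bases. Coloured blocks are matches on either strand, and tall blocks for ERSE or ERSE-II occur in 6 of the 10 genes. DNAJB9, PDIA4, EDEM1 and SEL1L show CCAAT boxes only, and CCAAT boxes inside ERSE or ERSE-II are not drawn apart.

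The 10 genes did not move as a block. HSP90B1 and PDIA4, which fold secreted and membrane proteins, rose under all 5 treatments, while XBP1, the transcription factor of the pathway, and HERPUD1, a part of the degradation machinery, fell under all 5. EDEM1 also fell in all 5, by smaller amounts. HSPA5, the central chaperone of the ER, passed the test against control under PI103 + PD0325901 and in none of the other 4 comparisons. With the replicate number as a block in the fit, HSPA5 also passed under PI103, as lower, and under PD0325901, as higher. All 5 comparisons share the same 4 control libraries. The quasi-likelihood test of edgeR was used, with p-values adjusted after Benjamini and Hochberg over 13947 genes and calls made at an adjusted p under 0.05. Differences are on the log2 scale with standard errors (SE), and levels are CPM after trimmed-mean (TMM) scaling. In these bulk libraries, less RNA of a gene per cell cannot be told apart from fewer cells that make it.

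Against control, PI103 changed 5 of the 10 genes, 2 higher and 3 lower, where 51.4% of all tested genes were called (26.2% higher, 25.2% lower). PD0325901 changed 8, 5 higher and 3 lower, against 58.6% of all genes (28.7% higher, 29.9% lower). Oxozeaenol changed 8, 4 higher and 4 lower, against 51.9% (25.7% and 26.1%). PI103 + oxozeaenol changed 7, 3 higher and 4 lower, against 55.6% (27.7% and 27.9%). PI103 + PD0325901 changed 9, 6 higher and 3 lower, against 64.8% (32.2% and 32.6%). The share under PI103 lies near the background and the other 4 shares lie above it, each over 10 genes. The median difference of the 10 genes was -0.25 under PI103, 0.45 under PD0325901, 0.068 under oxozeaenol, 0.17 under PI103 + oxozeaenol and 0.54 under PI103 + PD0325901, while that of all tested genes lay between -0.024 and 0.022. Tested for a change beyond 1.5-fold, the members called were 2 (of all genes 11.4%), 4 (18.2%), 3 (11.9%), 4 (15.0%) and 5 (24.6%) in the same order. XBP1 passed this stricter test in all 5 comparisons, HSP90B1 and PDIA4 in all but PI103, and HERPUD1 under PI103 and both combinations. SDF2L1 passed it under PD0325901 and DNAJB9 under PI103 + PD0325901. With the replicate number as a block, PI103 changed 8 of the 10, since HSPA5, HYOU1 and SEL1L then passed as lower (adjusted p = 0.0337, 0.0382 and 0.0449 by edgeR). The shares of all genes above come from the fit without the block, so this 8 cannot be set against them.

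**Figure D2:**
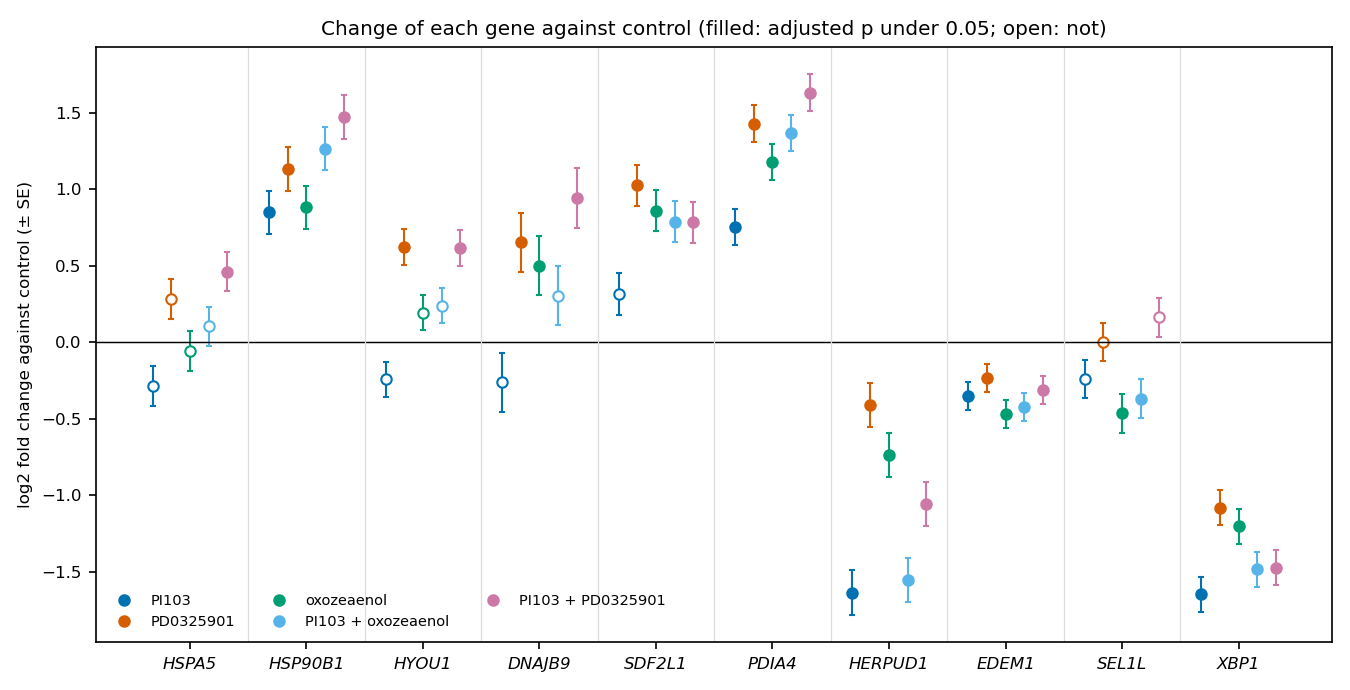
Log2 fold change of each gene against control for the 5 treatments (points), with its standard error (bars); filled points passed an adjusted p of 0.05 and open points did not. HSP90B1 and PDIA4 lie above 0 and HERPUD1, EDEM1 and XBP1 below 0 for all 5 treatments.

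HSPA5 (BiP, GRP78; chr9:125234853-125241330) binds unfolded chains and holds the 3 sensors inactive. Its level in control replicates 1 to 4 was 1885, 1461, 1668 and 1551 CPM. Under PI103 it was 1334, 1433, 1373 and 1242 CPM, under PD0325901 1653, 2576, 2004 and 1747 CPM and under oxozeaenol 1678, 1547, 1551 and 1526 CPM. The 4 PI103 libraries lay below all 4 control libraries, whereas the other single inhibitors overlapped control. PI103 + oxozeaenol gave 1839, 1702, 1879.6 and 1635 CPM, within the span of control, and PI103 + PD0325901 gave 2110.4, 2979.8, 2067 and 1880.2 CPM, where only the lowest library fell inside it. The difference from control was 0.46 ± 0.13 (SE) for PI103 + PD0325901 (1.38-fold, edgeR adjusted p = 0.00294). It was -0.29 ± 0.13 for PI103 (edgeR adjusted p = 0.0655) and 0.28 ± 0.13 for PD0325901 (edgeR adjusted p = 0.0635), and neither passed. With the replicate block both passed, at 0.0337 and 0.0464. Without replicate 2 of both PD0325901 groups the PI103 + PD0325901 difference was 0.30 (edgeR adjusted p = 0.00802).

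HSP90B1 (GRP94; chr12:103930107-103953645), the HSP90 of the ER, matures integrins and Toll-like receptors. In control it stood at 1678, 1428, 1967 and 1377 CPM. PI103 libraries held 3025, 2856, 3123 and 2605 CPM, PD0325901 libraries 2896, 4698, 3616 and 2932 CPM and oxozeaenol libraries 3318, 2857, 2793 and 2919 CPM. All treated libraries exceeded all controls. PI103 + oxozeaenol gave 4348, 3619, 3993 and 3535 CPM and PI103 + PD0325901 4594, 5449, 4049 and 3774 CPM. The rise was 0.85 ± 0.14 for PI103 (1.80-fold, edgeR adjusted p = 1.78e-05) and 1.47 ± 0.14 for PI103 + PD0325901 (2.77-fold, edgeR adjusted p = 1.82e-09), with PD0325901 at 1.13, oxozeaenol at 0.88 and PI103 + oxozeaenol at 1.26 between them. Within batches the PI103 difference ran from 0.67 to 1.00 and the PI103 + PD0325901 difference from 1.04 to 1.93, higher in 4 of 4 batches each. Exons of TTC41P and C12orf73 on the opposite strand and of MIR3652 on the same strand cover 2.24%, 2.58% and 2.79% of the HSP90B1 exon length.

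PDIA4 (ERp72; chr7:149003062-149028641) is a protein disulfide isomerase, which forms and rearranges disulfide bonds. Control libraries held 425, 372, 438 and 395 CPM. The levels were 685, 698, 704 and 656 CPM under PI103, 1007, 889, 905 and 885 CPM under oxozeaenol and 949.7, 1358, 1095 and 984 CPM under PD0325901. Control, PI103 and the other treated groups formed 3 steps that did not overlap. PI103 + oxozeaenol gave 1189.6, 951, 1099 and 968 CPM and PI103 + PD0325901 1248, 1618, 1124 and 1062 CPM, and these overlapped each other and PD0325901. PDIA4 rose by 0.75 ± 0.12 under PI103 (1.68-fold, edgeR adjusted p = 8.5e-06) and by 1.63 ± 0.12 under PI103 + PD0325901 (3.10-fold, edgeR adjusted p = 1.37e-11). The PI103 + PD0325901 rise was the largest difference from control among the 10 genes in the upward direction.

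HYOU1 (GRP170; chr11:119044189-119057202) exchanges the nucleotide on HSPA5 and so sets its cycle. Control ranged from 256 to 340.2 CPM, PD0325901 from 416 to 543 CPM and PI103 + PD0325901 from 374 to 570.0 CPM. Only the PD0325901 groups lay wholly above control. HYOU1 rose by 0.62 ± 0.12 under PD0325901 (1.54-fold, edgeR adjusted p = 5.86e-05) and by 0.61 ± 0.12 under PI103 + PD0325901 (1.53-fold, edgeR adjusted p = 5.45e-05). The PI103 libraries, at 228 to 276 CPM, and those of oxozeaenol, at 305 to 387 CPM, overlapped control. PI103 + oxozeaenol, at 318 to 370.1 CPM, did too, and its difference of 0.24 ± 0.12 did not pass (edgeR adjusted p = 0.0835), but did with the replicate block (0.0453). An annotated antisense gene covers 8.66% of the exon length of HYOU1, and whether reads were counted by strand is not given in the sources used here.

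SDF2L1 and DNAJB9 are low in abundance and work with HSPA5, SDF2L1 in a complex with the co-chaperone DNAJB11, and DNAJB9 (ERdj4) as a J-domain co-chaperone that also returns ERN1 to its inactive state. SDF2L1 (chr22:21642261-21644298) was at 19.2, 15.8, 14.9 and 16.6 CPM in control and 17.4, 26.1, 19.0 and 20.3 CPM under PI103, and these ranges overlapped. The other 4 groups, spanning 25.0 to 39.4 CPM, lay above all controls. SDF2L1 rose by 1.03 ± 0.14 under PD0325901 (2.04-fold, edgeR adjusted p = 4.32e-07), by 0.86 under oxozeaenol and by 0.79 and 0.78 in the combinations with oxozeaenol and PD0325901. The PI103 difference of 0.31 ± 0.14 missed the threshold (edgeR adjusted p = 0.0537). DNAJB9 (chr7:108569568-108574850) was at 27.5, 21.6, 18.0 and 18.6 CPM in control, 25.4, 37.9, 30.4 and 40.9 CPM under PD0325901 and 28.9, 56.2, 36.1 and 43.3 CPM under PI103 + PD0325901, and only this last group stood clear of control. It rose by 0.65 ± 0.19 under PD0325901 (edgeR adjusted p = 0.00574) and by 0.94 ± 0.19 under PI103 + PD0325901 (edgeR adjusted p = 0.000176). The oxozeaenol call for DNAJB9, 0.50 ± 0.19 (edgeR adjusted p = 0.0340), was lost without control replicate 2, 3 or 4 (adjusted p = 0.0559, 0.0989 and 0.0964), without oxozeaenol replicate 3 or 4 (0.0533 and 0.159) and with no filter on low counts (0.0868). Exons of THAP5 and PNPLA8 on the opposite strand cover 6.45% and 3.49% of the DNAJB9 exon length.

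**Figure D3:**
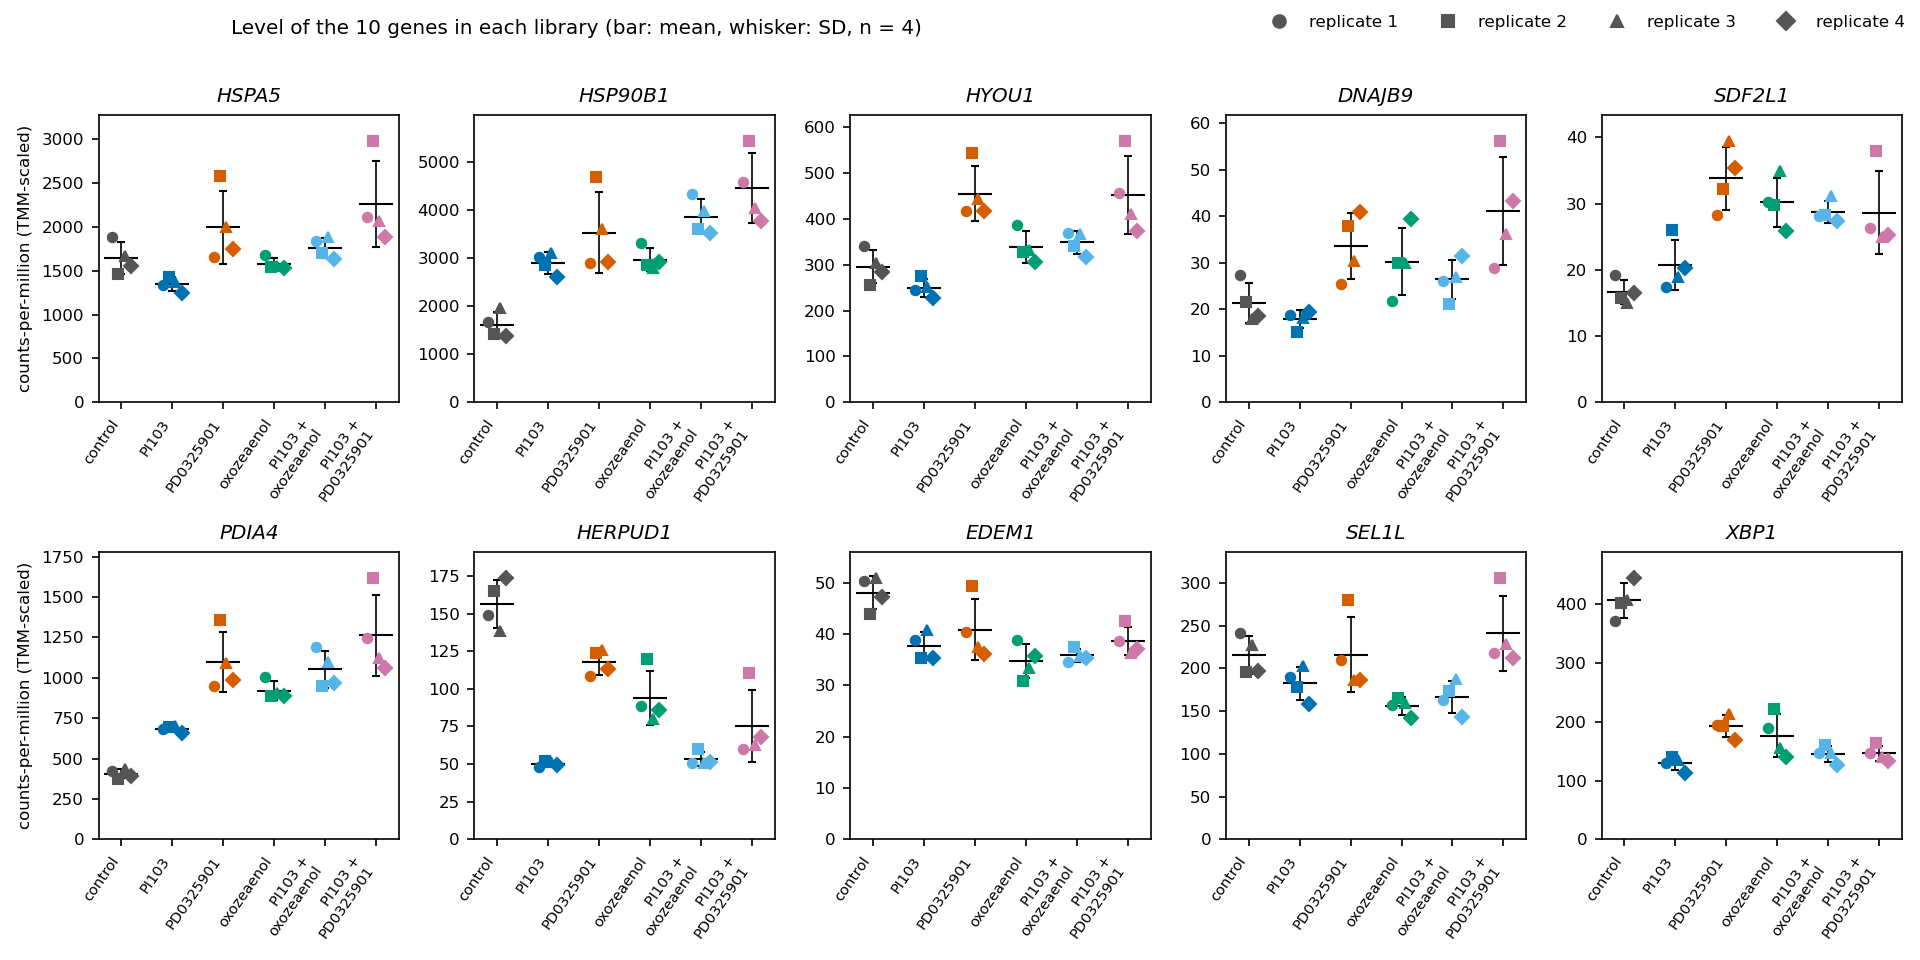
Level of each of the 10 genes in every library, in CPM after TMM scaling, by group. Each symbol is a library (its shape gives the replicate), the bar is the mean and the whisker the SD of 4 replicates. HSP90B1 and PDIA4 stand above control and XBP1 and HERPUD1 below control in every treated library.

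HSP90B1 and PDIA4 also changed relative to HSPA5 within a library, where scaling between libraries has no part. HSP90B1 counts were 0.888 to 1.18 times those of HSPA5 in control and 1.68 to 2.36 times in the 20 treated libraries. The group means of this ratio were 0.984 ± 0.137 (SD, n = 4) in control, 2.16 ± 0.137 under PI103 and 1.76 ± 0.0651 under PD0325901. PDIA4 counts were 0.226 to 0.263 times those of HSPA5 in control and 0.487 to 0.647 times in treated libraries. XBP1 counts moved the other way, from 0.197 to 0.286 times HSPA5 in control down to 0.0548 to 0.143 times under treatment. None of these 3 ratios overlapped between control and treated libraries. Only these 3 ratios were formed, with genes that were called under every treatment. How often the ratios of other genes to HSPA5 stay apart was not counted. The ratio shows unequal change of the paired genes and does not say which of them changed.

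**Figure D4:**
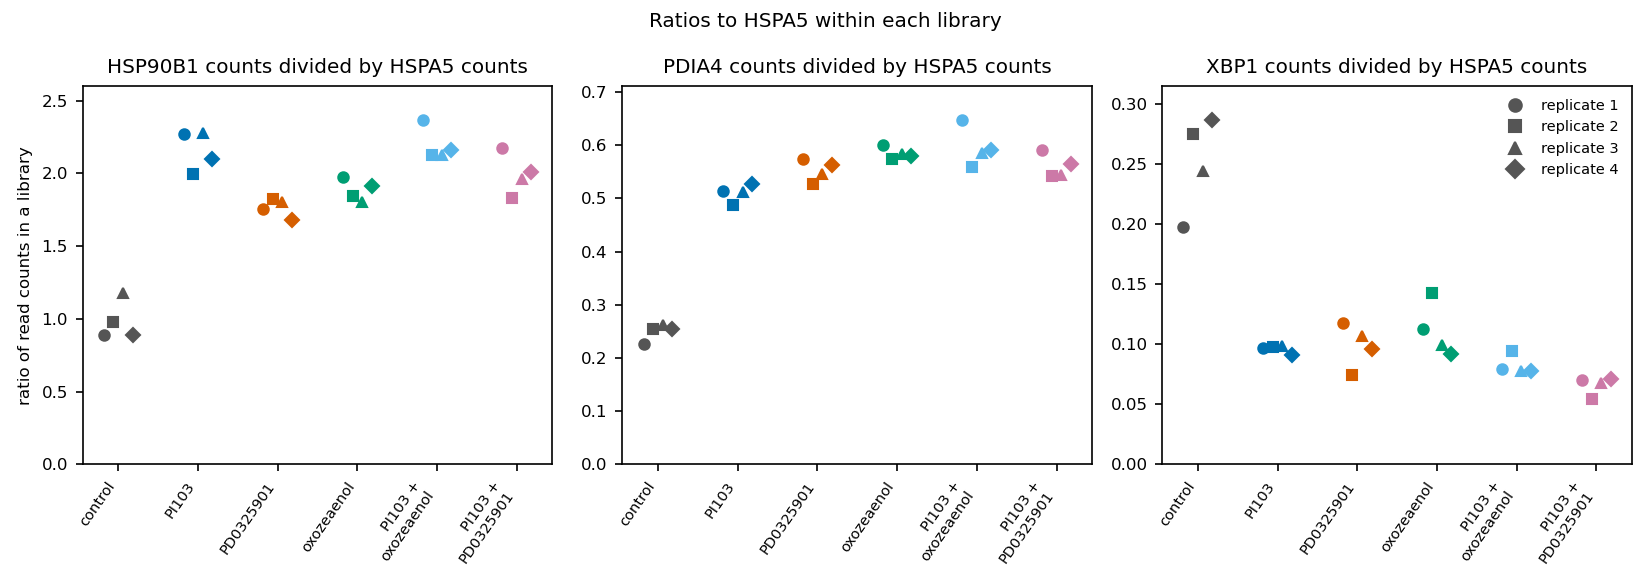
Read counts of HSP90B1, PDIA4 and XBP1 divided by those of HSPA5 in the same library (no unit), by group; each symbol is a library and its shape the replicate. The HSP90B1 ratio is at most 1.18 in control and at least 1.68 in every treated library.

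Levels per kilobase of exon compare genes only roughly, since the length sums all annotated exons and can exceed that of the mRNA made. This length was 3.908 kb for HSPA5 and 4.695 kb for HSP90B1. On this scale HSPA5 was highest in control at 419.9 ± 46.8 CPM per kb (SD, n = 4). HSP90B1 followed at 343 ± 57.6 with an overlapping range, so the order of these genes is not settled. XBP1 stood at 134 ± 9.82 and PDIA4 at 124 ± 9.11 CPM per kb. HYOU1, HERPUD1, SEL1L and SDF2L1 followed at 38.5 ± 4.59, 30.3 ± 3.09, 22.5 ± 2.35 and 15.1 ± 1.69 CPM per kb. DNAJB9 and EDEM1 were lowest, at 7.55 ± 1.52 and 7.11 ± 0.482 CPM per kb. Under PI103, HSP90B1 reached 618 ± 48.3 CPM per kb while HSPA5 stood at 344 ± 20.5, and PDIA4, at 209 ± 6.49, lay above XBP1, at 42.8 ± 3.87 CPM per kb. The 10 genes together made up 0.462% ± 0.0485 (SD, n = 4) of gene counts in control, 0.566% ± 0.0336 under PI103 and 0.945% ± 0.186 under PI103 + PD0325901, most of it HSPA5 and HSP90B1.

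Of the degradation factors, HERPUD1 fell furthest. It lies at chr16:56932048-56944863, its protein sits in the ER membrane with the ubiquitin ligase SYVN1 (HRD1), and control held 149, 165, 138 and 174 CPM. Levels were 48.2, 52.4, 51.3 and 49.1 CPM under PI103, 108, 124, 126 and 113 CPM under PD0325901 and 88.5, 119.9, 79.8 and 86.2 CPM under oxozeaenol. Every treated library lay below every control. PI103 + oxozeaenol gave 50.5, 60.2, 50.6 and 51.7 CPM, overlapping PI103 alone, and PI103 + PD0325901 60.0, 110.5, 62.7 and 67.8 CPM. HERPUD1 fell by 1.64 ± 0.15 under PI103 (3.11-fold lower, edgeR adjusted p = 1.58e-09), by 1.55 under PI103 + oxozeaenol, by 1.06 under PI103 + PD0325901 and by 0.74 under oxozeaenol. For PD0325901 it fell by 0.41 ± 0.14 (edgeR adjusted p = 0.0166). That call was lost with scaling by total counts (0.0631) or upper quartiles (0.0726), without control replicate 4 (0.0534) and without PD0325901 replicate 1 (0.0784).

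EDEM1 (chr3:5187646-5219957) recognises mannose-trimmed glycoproteins that have failed to fold. It ranged from 43.8 to 50.9 CPM in control and lay below that range under PI103 (35.3 to 40.8 CPM), oxozeaenol (30.9 to 38.8 CPM) and both combinations (34.6 to 37.5 CPM with oxozeaenol and 36.3 to 42.5 CPM with PD0325901). Under PD0325901, at 36.1 to 49.4 CPM, it overlapped control. EDEM1 fell by 0.47 ± 0.092 under oxozeaenol (1.38-fold lower, edgeR adjusted p = 0.000132), by 0.42 under PI103 + oxozeaenol and by 0.35 under PI103. Its falls of 0.31 under PI103 + PD0325901 and 0.23 under PD0325901 (edgeR adjusted p = 0.00393 and 0.0296) did not pass when libraries were scaled by total counts (0.112 and 0.227) or by upper quartiles (0.107 and 0.198). The PD0325901 call was also lost when only these 2 groups were fitted (0.144), without control replicate 1 or 3 and without PD0325901 replicate 1, 3 or 4 (adjusted p = 0.0749, 0.143, 0.102, 0.0930 and 0.115). An antisense gene covers 9.66% of the EDEM1 exon length.

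SEL1L (chr14:81471549-81533861), the adaptor that brings substrates to SYVN1, ranged from 196 to 241 CPM in control. It lay below control under oxozeaenol (142 to 166 CPM) and PI103 + oxozeaenol (143 to 187 CPM) and overlapped it in the other groups. SEL1L fell by 0.47 ± 0.13 under oxozeaenol (edgeR adjusted p = 0.00329) and by 0.37 ± 0.13 under PI103 + oxozeaenol (edgeR adjusted p = 0.0149). The second call was lost without control replicate 1 (0.0588) or PI103 + oxozeaenol replicate 4 (0.0652). Under PD0325901 the difference was 0.0023 ± 0.13, with a 95% interval of -0.26 to 0.26.

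XBP1 (chr22:28794555-28800597) encodes the factor that ERN1 activates by splicing its mRNA, and its total mRNA fell under every treatment. Control libraries held 372, 402, 407 and 444 CPM. PI103 libraries held 129.6, 140.4, 135 and 113 CPM, PD0325901 libraries 194, 192, 214 and 168 CPM and oxozeaenol libraries 189.7, 221, 155 and 141 CPM. The highest treated library, at 221 CPM, was below the lowest control, at 372 CPM. The combinations gave 147, 160.1, 146 and 127 CPM with oxozeaenol and 148, 163, 140.4 and 134 CPM with PD0325901. XBP1 fell by 1.65 ± 0.12 under PI103 (3.13-fold lower, edgeR adjusted p = 1.85e-11), by 1.49 and 1.47 in the combinations, by 1.20 under oxozeaenol and by 1.08 ± 0.11 under PD0325901 (2.11-fold lower, edgeR adjusted p = 1.19e-08). Within batches the differences ran from -1.97 to -1.52 for PI103 and from -1.40 to -0.93 for PD0325901.

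The mRNAs of the sensors moved in different directions. ERN1, the kinase and nuclease that splices XBP1, ranged from 9.20 to 13.0 CPM in control and from 2.03 to 2.66 CPM under PI103. Its difference from control was -2.29 under PI103 (edgeR adjusted p = 3.08e-11) and -1.57, -1.55, -2.10 and -2.03 under PD0325901, oxozeaenol, PI103 + oxozeaenol and PI103 + PD0325901, called lower in all 5. ATF6 fell in all 5, from 187 ± 9.50 CPM (SD, n = 4) in control to between 109 ± 11.6 under oxozeaenol and 132 ± 16.3 CPM under PD0325901. EIF2AK3 went the other way and rose by 1.11 under PD0325901 and 1.13 under PI103 + PD0325901 (edgeR adjusted p = 3.24e-06 and 1.8e-06). It also rose by 0.41 under oxozeaenol and 0.63 under PI103 + oxozeaenol (edgeR adjusted p = 0.0367 and 0.00213). Its PI103 difference of 0.24 did not pass (edgeR adjusted p = 0.222). EIF2AK3 stood at 72.2 CPM in replicate 2 of PD0325901, with its other libraries at 38.1 to 43.7 CPM. In PI103 + PD0325901, replicate 2 held 68.2 CPM and the others 40.2 to 45.3 CPM, against 21.2 to 24.5 CPM in control. Differences of EIF2AK3 without replicate 2 are not given here. Of the 3 other genes of this list, MBTPS1, the site-1 protease that cuts ATF6, rose by 0.54 under PI103, and MBTPS2, the site-2 protease, fell by 0.65 under PD0325901.

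Genes of the ATF4 arm fell. All 11 tested genes of 12 listed were lower in each of the 5 comparisons, where 25.2% to 32.6% of all tested genes were lower, with median differences of -3.87 under PI103 and -2.05 under PD0325901. ATF4 mRNA was at 791 ± 62.2 CPM (SD, n = 4) in control and 287 ± 13.6 CPM under PI103 + PD0325901, and DDIT3 (CHOP), its target, ranged from 72.4 to 156 CPM in control and from 6.99 to 9.42 CPM under PI103 (-3.87, edgeR adjusted p = 4.26e-10). HERPUD1 and XBP1 fell beside these genes, whereas HSP90B1 and PDIA4 rose in the same libraries.

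Of the other ER folding factors that passed, all but ERO1A were higher in the comparisons with control. Of 18 folding factors tested, 7 rose and none fell under PI103, 14 rose and 1 fell under PD0325901, 9 rose and 1 fell under oxozeaenol, 10 rose and 1 fell under PI103 + oxozeaenol, and 12 rose and 1 fell under PI103 + PD0325901. Of all tested genes, 26.2%, 28.7%, 25.7%, 27.7% and 32.2% were higher in the same order. Called in either direction were 38.9% of the list under PI103, against 51.4% of all genes, and 55.6% under oxozeaenol, against 51.9%. The list medians were 0.12, 0.52, 0.28, 0.34 and 0.60 in that order. CRELD2, a secreted disulfide isomerase-like protein of the ER, had the largest rise in the last 4 comparisons, 1.74 under PD0325901 and 1.75 under PI103 + PD0325901, and TXNDC5 the largest under PI103 (0.58). The gene that fell was ERO1A, the oxidase that recharges disulfide isomerases, at -0.56 under PD0325901 and -0.63 under oxozeaenol.

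The remaining degradation factors were split. Of 14 tested of 15 listed, 2 rose and 3 fell under PI103, 7 rose and 3 fell under PD0325901, 4 rose and 3 fell under oxozeaenol, 4 rose and 5 fell under PI103 + oxozeaenol, and 7 rose and 4 fell under PI103 + PD0325901. Of all tested genes, 26.2%, 28.7%, 25.7%, 27.7% and 32.2% were higher in that order, and 25.2%, 29.9%, 26.1%, 27.9% and 32.6% were lower. The 5 of 14 called under PI103 are a smaller share than the 51.4% of all genes, and the 7 of 14 under oxozeaenol are near 51.9%. OS9, a lectin that passes glycoproteins to SEL1L, had the largest rise in all 5, from 0.44 under oxozeaenol to 0.96 under PI103 + PD0325901. EDEM3, a mannosidase related to EDEM1, had the largest fall under oxozeaenol, at -0.62. Of 21 genes of ER translocation and early secretion, 3 rose and 4 fell under PI103, 13 rose and 1 fell under each of PD0325901 and oxozeaenol, 10 rose and 3 fell under PI103 + oxozeaenol, and 12 rose and 2 fell under PI103 + PD0325901. The 7 of 21 called under PI103 are again a smaller share than among all genes. KDELR3, a receptor that returns chaperones to the ER, had the largest rise of that list in all 5, up to 1.71 under PD0325901.

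Among 13 heat shock proteins of the cytosol and mitochondria, 5 rose and 3 fell under PI103, 5 and 4 under PD0325901, 6 and 2 under oxozeaenol, 5 and 3 under PI103 + oxozeaenol, and 4 and 5 under PI103 + PD0325901. Between 61.5% and 69.2% of this list was called in a comparison, near the 51.4% to 64.8% of all tested genes. HSPA1B, the inducible cytosolic relative of HSPA5, rose by 2.15 under PI103, and HSPA9, the mitochondrial relative, fell in all 5, at -1.35 under PI103.

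**Figure D5:**
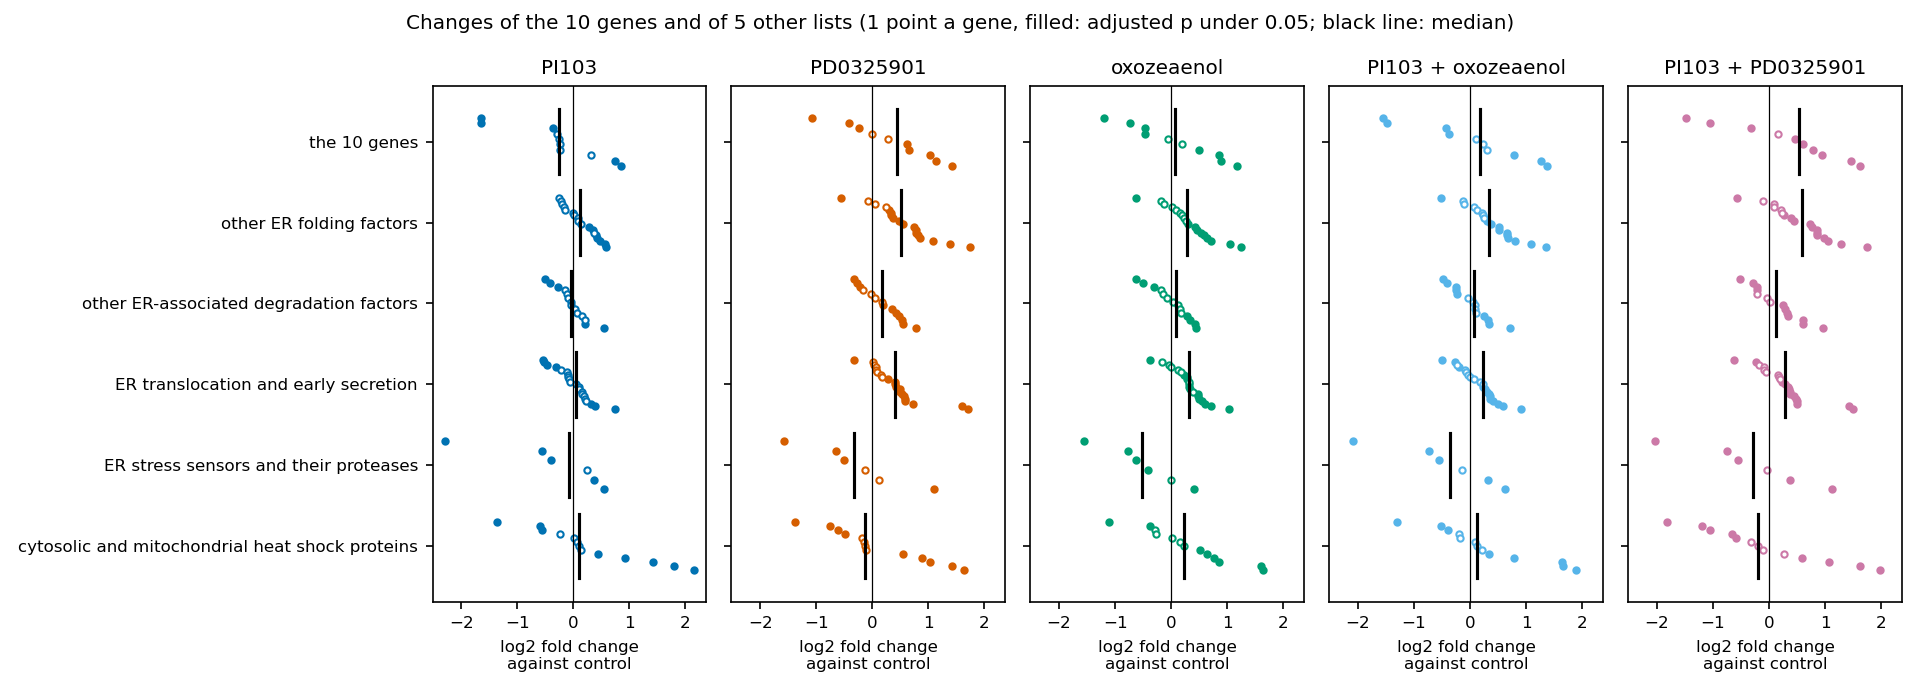
Log2 fold change against control of every tested gene of 6 lists (rows), for the 5 treatments (panels, same horizontal scale); filled points passed an adjusted p of 0.05, open points did not, and black lines are list medians. Filled points of the other ER folding factors lie right of 0 except for ERO1A, while the 10 genes and the sensors spread to both sides.

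When the single inhibitors were set against each other, PI103 gave lower levels of most of the 10 genes. Against PD0325901, 7 of 10 were lower with PI103 and none higher, with 44.5% of all genes called and 22.9% lower. The largest of these differences were HERPUD1 at -1.23 ± 0.15 (edgeR adjusted p = 2.03e-07), DNAJB9 at -0.92 ± 0.19 and HYOU1 at -0.87 ± 0.12. Against oxozeaenol, 6 were lower with PI103 and none higher, with 43.1% of all genes called and 22.5% lower, and HERPUD1 (-0.90) and DNAJB9 (-0.76) led again. HSP90B1 did not pass in either comparison. Its difference was -0.28 ± 0.14 against PD0325901 and -0.034 ± 0.14 against oxozeaenol, with 95% intervals of -0.57 to 0.004 and -0.32 to 0.25.

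PD0325901 and oxozeaenol differed in 3 of the 10 genes, all higher with PD0325901, where 28.5% of all genes were called and 15.1% were higher. HYOU1 was higher by 0.43 ± 0.12 with PD0325901 (edgeR adjusted p = 0.00807), SEL1L by 0.47 ± 0.13 (edgeR adjusted p = 0.00761) and HSPA5 by 0.34 ± 0.13 (edgeR adjusted p = 0.0491). HSPA5 did not pass when only these 2 groups were fitted (0.116), without oxozeaenol replicate 2, 3 or 4 (0.0960, 0.0940 and 0.0910) or without PD0325901 replicate 3 (0.0803). Without PD0325901 replicate 2, HYOU1 alone passed, since HSPA5 and SEL1L had adjusted p of 0.242 and 0.0527. With the replicate block 5 passed, as HERPUD1 (0.0142) and EDEM1 (0.0485) joined them. The inhibitors differ in concentration and target, so these values are set side by side and say nothing of potency.

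Each combination was also set against the partner of PI103 alone at full concentration. The shares of the 10 genes called there, 2 of 10 and 1 of 10, lay near those of all genes. PI103 + PD0325901 differed from PD0325901 in 2 of 10 genes, with 18.1% of all genes called and 10.0% lower, and both were lower: HERPUD1 by 0.65 ± 0.14 (edgeR adjusted p = 0.00302) and XBP1 by 0.39 ± 0.11 (edgeR adjusted p = 0.0174). XBP1 did not pass without PD0325901 replicate 3 (0.0726) or PI103 + PD0325901 replicate 4 (0.0551). Without replicate 2 of both PD0325901 groups 4 passed, with HSP90B1 (0.39) and SDF2L1 (-0.43) added. With the replicate block HSP90B1 passed as well (0.0495). The HSPA5 difference was 0.18 ± 0.13, with a 95% interval of -0.085 to 0.44. PI103 + oxozeaenol differed from oxozeaenol in HERPUD1 alone, lower by 0.81 ± 0.14 (edgeR adjusted p = 0.000463), with 14.9% of all genes called and 7.28% lower. With the replicate block HSP90B1 (0.0323) and XBP1 (0.0366) also passed there, which made 3.

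Against PI103 alone, both combinations had higher chaperone levels. The combinations held 0.35 µM PI103 against 0.7 µM in PI103 alone, so an added partner and less PI103 cannot be told apart. PI103 + PD0325901 was higher in 8 of the 10 genes and lower in none, with 38.7% of all genes called and 18.8% higher: all 6 chaperones and co-chaperones, HERPUD1 and SEL1L. The differences were 1.20 ± 0.20 for DNAJB9, 0.88 ± 0.12 for PDIA4, 0.86 ± 0.12 for HYOU1 and 0.75 ± 0.13 for HSPA5 (edgeR adjusted p = 4.18e-05, 2.16e-06, 2.72e-06 and 6.57e-05). Without PI103 + PD0325901 replicate 2, SDF2L1 and SEL1L did not pass (0.0693 and 0.104), and without PI103 replicate 4 SEL1L did not (0.0540). PI103 + oxozeaenol was higher in 6, the chaperones and co-chaperones, with 18.3% of all genes called and 9.39% higher. PDIA4 (0.62 ± 0.12) and HYOU1 (0.48 ± 0.12) passed in every fit that left out a library, whereas HSPA5, HSP90B1, DNAJB9 and SDF2L1 each missed in at least 2 of the 8. HSP90B1 also missed with scaling by total counts (0.0564), and 3 of the 10 passed with no filter on low counts. Without PI103 replicate 1 or replicate 3, 2 of the 10 passed, and without PI103 replicate 4 or PI103 + oxozeaenol replicate 1 or 3, 3 passed. Without replicate 2 of PI103, 4 passed.

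A combination was also set against the mean of its single agents at full concentration. PI103 + PD0325901 lay above that mean in 5 of the 10 genes, with 22.0% of all genes called and 10.8% higher: DNAJB9 by 0.75 ± 0.16 (edgeR adjusted p = 0.00237), PDIA4 by 0.54 ± 0.10 (edgeR adjusted p = 0.00045), HSP90B1 by 0.48 ± 0.12, HSPA5 by 0.46 ± 0.11 and HYOU1 by 0.43 ± 0.099. Without PI103 + PD0325901 replicate 2 the count was 2, DNAJB9 and PDIA4, with HSPA5, HSP90B1 and HYOU1 at adjusted p of 0.0628, 0.0578 and 0.0507. With replicate 2 of both PD0325901 groups left out, all 5 passed. SEL1L joined with the replicate block (0.0202). PI103 + oxozeaenol lay above its mean in PDIA4 alone, by 0.40 ± 0.10 (edgeR adjusted p = 0.0199), where 3.98% of all genes were called and 2.88% were higher, and this call was lost without PI103 + oxozeaenol replicate 1 (0.150) or 3 (0.0862). With the replicate block 3 passed there, as HSP90B1 was higher (0.0231) and HERPUD1 lower (0.0195). Being at the level of the stronger partner is enough to lie above such a mean, and in the edgeR fit of all 24 libraries without the block none of the 10 genes was called higher in a combination than in both of its single agents. HSP90B1 was so called with the replicate block, in PI103 + oxozeaenol (adjusted p = 0.0171 against PI103 and 0.0323 against oxozeaenol by edgeR) and in PI103 + PD0325901 (0.000358 against PI103 and 0.0495 against PD0325901). HSP90B1 was also called above both agents by DESeq2, or with only the compared groups fitted, in PI103 + oxozeaenol, and with replicate 2 of both PD0325901 groups left out in PI103 + PD0325901.

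These 9 comparisons were also tested for a change beyond 1.5-fold. In the 2 that called any of the 10 genes, the share called lay above that of all genes, each over 10 genes. PI103 + PD0325901 was higher than PI103 in DNAJB9, PDIA4 and HYOU1 (3 of 10, with 6.37% of all genes called), and PI103 was lower than PD0325901 in HERPUD1 and HYOU1 (2 of 10, with 9.98% called). None passed in the other 7, where 2.37% (PI103 + oxozeaenol against PI103), 0.538% (against oxozeaenol), 0.782% (PI103 + PD0325901 against PD0325901), 6.99% (PI103 against oxozeaenol), 2.06% (PD0325901 against oxozeaenol), and 0.136% and 1.05% (the combinations with oxozeaenol and PD0325901 against their means) of all genes were called. At an unadjusted p under 0.05 in the same edgeR test, 1 of the 10 passed for PI103 + oxozeaenol against oxozeaenol, 1 for PI103 against oxozeaenol and 0 in the other 5 of these 7.

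The order of group means differed between the genes. From lowest to highest, HSPA5 ran from PI103 through oxozeaenol, control, PI103 + oxozeaenol and PD0325901 to PI103 + PD0325901, and only PI103 and oxozeaenol had ranges that did not overlap as neighbours. For HSP90B1 the order was control, PI103, oxozeaenol, PD0325901, PI103 + oxozeaenol, PI103 + PD0325901, with control apart and every later pair of neighbours overlapping. XBP1 ran from PI103 through PI103 + oxozeaenol, PI103 + PD0325901, oxozeaenol and PD0325901 to control, and only control was apart.

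By the root mean square difference of centred log2 CPM over the 24 libraries, HYOU1 was the closest to HSPA5 of all genes compared (0.134). Of the 10030 genes outside the 10 with a mean of at least 5 CPM, the closest to HSPA5 was DNAJB11 (0.147), the ER J-domain co-chaperone, followed by TPST1 (0.156), a sulfotransferase, and DIRC2 (0.157). DNAJB11 was also the closest to the mean of the 10 genes (0.0917), with a difference from control of 0.34 under PD0325901 (edgeR adjusted p = 0.0111) and -0.21 under PI103 (edgeR adjusted p = 0.130). The profile of XBP1 was most like those of RCAN1 (0.130), NFIL3 (0.136) and RNF41 (0.146), and RCAN1, an inhibitor of calcineurin, was at -1.50 under PI103 and -0.87 under PD0325901.

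The motifs shown above also occur before other genes. ERSE was in a window of 25 genes, of which 17 were tested and 14 were outside the 10. Of those 14, 10 rose and 2 fell under PD0325901, where 28.7% of all tested genes rose and 29.9% fell. Under PI103 + PD0325901 8 rose and 3 fell, against 32.2% and 32.6%. The 14 include CALR, CANX, CRELD2, PDIA6 and ERO1B. These 5 also belong to the other ER folding factors counted above, so the 2 counts share genes. CALR, CRELD2 and PDIA6 rose in all 5 comparisons with control, whereas CANX rose only under PD0325901 and oxozeaenol. ERO1B rose under PD0325901 and both combinations. EIF2A is among the 14 as well and fell in all comparisons but PI103. SERP1, also among the 14, fell under PI103 and PI103 + oxozeaenol, and FICD passed in no comparison. Under PI103, oxozeaenol and PI103 + oxozeaenol 5, 7 and 7 of the 14 rose and 2, 3 and 3 fell. Of all genes, 26.2%, 25.7% and 27.7% rose and 25.2%, 26.1% and 27.9% fell in the same order. Of 11 tested genes outside the 10 with ERSE-II, 7 rose and 2 fell under PI103, 5 rose and 1 fell under PD0325901, 5 rose and 4 fell under oxozeaenol, and 6 rose and 2 fell under each combination. The shares of all genes that rose and fell are those just given for each treatment. The total called for ERSE under PI103 and for ERSE-II under PD0325901 lies near the 51.4% and 58.6% of all genes called. Within the 10, genes with ERSE differed in direction: HSP90B1 rose and XBP1 fell under every treatment. Among those with ERSE-II, SDF2L1 and HERPUD1 parted in the same way in all treatments but PI103, where the SDF2L1 rise did not pass.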

How the data were processed

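Read counts per gene, as deposited by the authors in one table, were the only values used. Per the submitters' processing notes the build was GRCh38. The aligner, the counting tool, its use of strand and its treatment of reads that match several places, such as pseudogene copies of HSPA5, HSP90B1 and XBP1, are not given in the sources used here. RNA libraries were made with a stranded mRNA kit, per the labels' protocols. The table ends in 5 tallies of unassigned reads (10.7% to 16.5% of a library), which were left out. Libraries held 38.1 M to 84.2 M gene counts (median 58.9 M), and no 2 of the same group agreed within sampling noise. Libraries of different groups were not compared in this way.

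Counts were filtered with filterByExpr (13947 of 23368 genes kept), scaled by TMM and tested with edgeR 4.0.16 in R 4.3.3 (robust quasi-likelihood F test, 1 coefficient for each of 6 groups over all 24 libraries, two-sided, Benjamini-Hochberg over all genes tested). The test beyond 1.5-fold was glmTreat. The 14 comparisons were 5 against control, 4 of a combination against a single agent, 3 between single agents, and 2 of a combination against the mean of its agents. CPM per kb used the summed exon length of GENCODE 29. Promoter windows and gene positions came from RefSeq on GRCh38.p14 and GENCODE 29 on GRCh38.

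The 10 genes, the other lists and the alternatives were chosen with earlier results of these data known. All 10 are named whatever their values. From each other list the gene with the largest called rise and fall in a comparison with control may be named (mean of at least 5 CPM), as may ERN1, ATF6, EIF2AK3, ATF4, DDIT3 and the 3 genes closest to a profile. Alternatives were DESeq2 1.42.0, RLE factors, total counts, upper quartiles, no filter, only the groups compared, the replicate block and each library left out.

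The replicate number is labelled a batch, so it pairs libraries across groups. Over the 60 pairs of libraries with the same number in different groups, deviations from the group means correlated at 0.120 on average (47 positive, 28 over 0.1), against -0.0394 over 180 pairs with different numbers. Each batch holds 1 library of every group. No label says that replicates came from separate cultures beyond the words biological replicates, so p-values measure the spread between these libraries.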

Additional observations from a re-analysis of the deposited data

Results flagged for a closer look

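In groups of 4, a library was singled out when its gap to the nearest of the others, divided by the range of the group, exceeded Dixon's 95% critical value. This happened in 5 of 60 groups of values (10 genes in 6 groups), where chance gives about 1 in 20. HSPA5 was 1678 CPM in replicate 1 of oxozeaenol, against 1526 to 1551 CPM in the other 3 libraries. PDIA4 was 1007 CPM in the same library, against 885 to 905 CPM. SDF2L1 was 37.9 CPM in replicate 2 of PI103 + PD0325901, against 25.0 to 26.3 CPM. HERPUD1 was 110.5 CPM in that library, against 60.0 to 67.8 CPM. HERPUD1 was also 60.2 CPM in replicate 2 of PI103 + oxozeaenol, against 50.5 to 51.7 CPM. All 5 were the highest of their group.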

How the results depend on the processing

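Against control, the directions of HSP90B1, PDIA4, HERPUD1, EDEM1 and XBP1 held in all 5 comparisons under every alternative run, and with each library left out. RLE factors left every call of the 10 genes where it was. With the replicate block the members called were 8 for PI103 against control, 3 for PI103 + oxozeaenol against oxozeaenol, 5 for PD0325901 against oxozeaenol and 3 for PI103 + oxozeaenol against the mean of its agents. The block made 13 values pass that had missed and ended no call, and those that changed are given beside their results. Fits of only the groups compared gave 9 for PI103 against control (3 higher, 6 lower), 2 for PI103 + oxozeaenol against oxozeaenol and 5 against the mean of its agents. DESeq2 gave 2 in each of the last 2 comparisons, and no filter gave 3 for PI103 + oxozeaenol against PI103. Shares of all genes given beside the results come from the edgeR fit of all 24 libraries without the block. They do not apply to the counts of these alternatives.

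Beyond 1.5-fold, the counts were 2, 4, 3, 4 and 5 against control, 3 for PI103 + PD0325901 against PI103, 2 for PI103 against PD0325901 and 0 in the other 7 comparisons. With scaling by total counts, 6 rose and 1 fell under PD0325901 and 6 rose and 2 fell under PI103 + PD0325901. With upper quartiles, 6 rose and 1 fell, and 7 rose and 2 fell. These scalings moved the median of all genes under PI103 + PD0325901 from 0.0050 to 0.134 and 0.149, and its called genes from 4486 higher and 4553 lower to 5391 and 3604, and 5541 and 3536.

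With a library left out, members called ran from 5 to 7, 7 to 8, 7 to 8, 6 to 7 and 9 to 9 against control. They ran from 2 to 5 and 1 to 2 for PI103 + oxozeaenol against PI103 and oxozeaenol, 6 to 8 and 1 to 4 for PI103 + PD0325901 against PI103 and PD0325901, 7 to 8 and 6 to 6 for PI103 against PD0325901 and oxozeaenol, 1 to 4 for PD0325901 against oxozeaenol, and 0 to 2 and 2 to 6 against the means. For PI103 + oxozeaenol against oxozeaenol the count was 2 without oxozeaenol replicate 1 or 4, and against its mean 2 without oxozeaenol replicate 1. Leaving out replicate 2 of both PD0325901 groups was chosen after seeing the data.

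Signs turned only in values that had not passed. With total counts these were HSP90B1 for PI103 against oxozeaenol (0.0045), HYOU1 for PI103 + PD0325901 against PD0325901 (0.036), and HERPUD1 (0.020) and EDEM1 (0.029) for PI103 + PD0325901 against its mean. With upper quartiles they were HSPA5 for oxozeaenol against control (0.0022) and the last 3 again (0.045, 0.031 and 0.039). SEL1L under PD0325901 was -0.016 with no filter and -0.010 with the block. With libraries left out, the ranges were -0.11 to 0.019 for HSPA5 under oxozeaenol, -0.15 to 0.065 for SEL1L under PD0325901 and -0.076 to 0.022 for HSP90B1 in PI103 against oxozeaenol. Against oxozeaenol, PI103 + oxozeaenol gave -0.00095 to 0.12 for HYOU1, -0.14 to 0.0045 for SDF2L1 and -0.011 to 0.11 for EDEM1, and against its mean -0.039 to 0.026 for EDEM1, -0.077 to 0.050 for SEL1L and -0.11 to 0.0029 for XBP1. PI103 + PD0325901 gave -0.14 to 0.074 for HYOU1 and -0.14 to 0.0089 for EDEM1 against PD0325901, -0.0098 to 0.080 for EDEM1 against PI103, and -0.063 to 0.18 for SDF2L1, -0.28 to 0.058 for HERPUD1 and -0.070 to 0.033 for EDEM1 against its mean. The cause of these changes was not tested.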
